A study of Mus musculus with 32 samples.

Results

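The effect of deleting Ldha in chondrocytes under interleukin-1β (IL-1β) was read from the 4 libraries that carry the Ldha f/f genotype (labelled LDHA flox) and received IL-1β, 4 of 32 libraries in the series. The cells were primary C57BL/6 mouse chondrocytes of pups of postnatal days 1 to 3. All were infected with an adenovirus for 24 h and then kept for another 24 h with IL-1β at 10 ng/mL. In 2 libraries the virus carried eGFP alone (GFP + IL-1β) and in the other 2 it carried Cre recombinase and eGFP (Cre + IL-1β). Another 4 libraries of the same line had the same viruses and no IL-1β, and chondrocytes of Nampt f/f and Nfkbiz f/f pups had the same treatments, also 2 libraries for each group. Wild-type chondrocytes with no virus gave 8 more libraries, used below as a range. By label these were untreated or had FX11 (40 μM), IL-1β (10 ng/mL) or both for 24 h, 2 libraries each. Libraries were depleted of ribosomal RNA, so the counts cover total RNA. The titles of the samples form 2 library sets, and each group of Ldha f/f chondrocytes has 1 library in each set. The labels do not say whether the 2 libraries of a group are separate animals or cultures. The p-values measure spread between libraries after the shift between sets is taken out. This spread is pooled over the 8 libraries of the line, or over 24 where lines are compared. Whether it is spread between animals is not known. The labels name no deleted exon. No group of unfloxed cells had Cre virus, so the virus and the loss of the gene cannot be told apart within Ldha f/f chondrocytes.

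Lactate dehydrogenase A is the subunit that turns pyruvate into lactate and returns NADH to NAD+, the last step of fermentation. Chondrocytes are the cells of cartilage, and they make its collagen and proteoglycan matrix in a tissue with no vessels, where fermentation supplies much of their energy. IL-1β is an inflammatory cytokine that acts through NF-κB and AP-1 transcription factors, drives chondrocytes to make proteases, chemokines and acute-phase proteins, and lowers their matrix genes. The comparison described here asked what deletion of Ldha changed in chondrocytes that were exposed to IL-1β.

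The totals were 36421810 and 21413568 counts in GFP + IL-1β and 26488406 and 18237872 in Cre + IL-1β, within the 15830658 to 39959888 of the series. Levels are given as CPM, counts relative to library totals scaled with TMM factors, set 1 before set 2. Among virus-free wild-type libraries of set 2 (some given FX11, an inhibitor of lactate dehydrogenase A), Mmp3 was at 0.747 CPM where the label names IL-1β and at 1906 CPM where it names FX11 alone, against their labels, so the 8 wild-type libraries enter below only as a range over all of them. The second Cre + IL-1β library of the Nfkbiz f/f line also stood apart, with 0.538% of its counts from the mitochondrial genome and 11.865% from Gm26917.

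The targeted gene was lower in the Cre libraries. Ldha (ENSMUSG00000063229, chromosome 7, 46841475 to 46855627 of GRCm38) stood at 1591 and 1608 CPM in GFP + IL-1β and at 85.2 and 76.1 CPM in Cre + IL-1β. The groups did not overlap, and the log2 fold change was -4.31 ± 0.06 (standard error, SE), with an adjusted p of 2.46e-17 in the quasi-likelihood test of edgeR (Benjamini-Hochberg adjustment), 19.8-fold lower. In bulk RNA, fewer cells of a kind and less RNA per cell cannot be told apart, here and for each gene below. Without IL-1β the level went from 947 and 898 CPM with GFP to 120.0 and 114 CPM with Cre, a log2 fold change of -2.98, and the effect of Cre under IL-1β differed from it by -1.33 on the log2 scale (adjusted p = 4.06e-09). Ldha-ps2, a processed copy of Ldha that was picked after its values were seen and can take reads of it, had 5.71 and 5.52 CPM with GFP and 0.0347 and 0.157 CPM with Cre. Ldhb, which encodes the subunit that favours the return of lactate to pyruvate, rose from 24.1 and 24.6 to 37.1 and 34.9 CPM, a log2 fold change of 0.57 ± 0.08 (SE) and an adjusted p of 2.2e-05.

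Of 15880 genes tested, 7120 (44.8%) passed the test at an adjusted p of 0.05, 3513 higher (22.1%) and 3607 lower (22.7%) in Cre + IL-1β. A change of 2-fold or more was seen for 1153 of the higher and 859 of the lower genes, and of 4-fold or more for 439 and 211. The median log2 fold change over all genes tested was -0.01. In the libraries without IL-1β the same change of virus gave 1994 calls (12.6%), 1028 higher (6.47%) and 966 lower (6.08%), and 877 calls with no block for the library set. The counts for each list of genes below are to be read against these shares. Values with no unit given for a gene, or in brackets after it, are log2 fold changes of Cre over GFP under IL-1β, unless another line or condition is named.

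**Figure D1:**
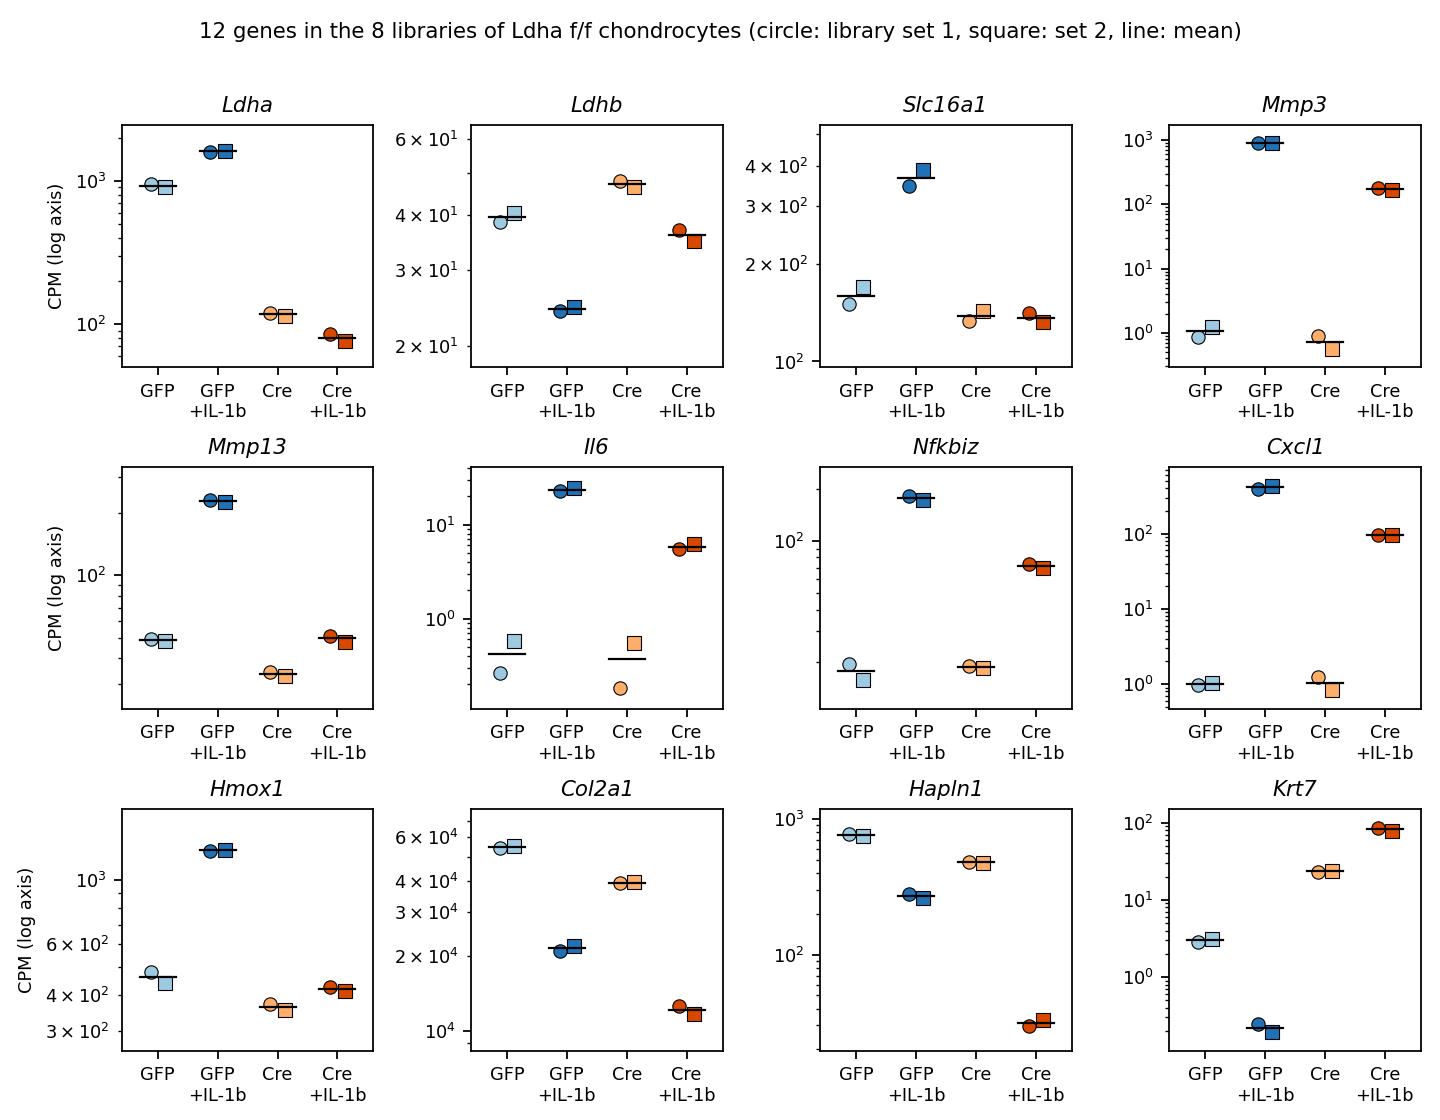
CPM on a log axis for 12 genes in the 8 libraries of Ldha f/f chondrocytes, by virus and IL-1β, with circles for library set 1, squares for set 2 and a line at the mean of each group of 2. Ldha, Slc16a1, Mmp3, Mmp13, Il6, Nfkbiz, Cxcl1, Hmox1, Col2a1 and Hapln1 were lower in both Cre + IL-1β libraries than in both GFP + IL-1β libraries, and Ldhb and Krt7 were higher.

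Matrix-degrading enzymes split by member. Among 14 matrix metalloproteinases tested, 5 fell and 5 rose, with a median log2 fold change of -0.13 that became 0.06 without GFP + IL-1β replicate 2. Mmp3, stromelysin, fell from 891 and 898 to 178 and 168 CPM, a log2 fold change of -2.37 ± 0.07 (SE) and an adjusted p of 5e-14. Mmp13, the collagenase that cuts type II collagen, fell from 232 and 227 to 51.3 and 48 CPM, a log2 fold change of -2.21 ± 0.06 (SE) and an adjusted p of 2.26e-14. For Mmp13 this is close to the level of GFP libraries without IL-1β, which stood at 49.6 and 48.5 CPM. Mmp3 in those libraries stood at 0.858 and 1.25 CPM, far under its level in Cre + IL-1β. Nearness to GFP without IL-1β, here and for Slc16a1 and Slc7a11 below, does not show a lost response, whose baseline is Cre without IL-1β. Mmp10, Mmp12 and Mmp16 had log2 fold changes of -2.04, -1.91 and -1.86. Mmp12 overlaps Mmp1b on the opposite strand, and without a known strand setting the reads of such pairs cannot be told apart. The 5 that rose were Mmp14 (0.24), Mmp2 (0.36), Mmp23 (0.55), Mmp9 (1.13) and Mmp15 (1.60), of which Mmp14 and Mmp2 encode the membrane-bound protease and the gelatinase it activates.

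Of 8 aggrecanases and inhibitors tested, 4 fell and 4 rose. Adamts5, the main aggrecanase of mouse cartilage, fell from 76.7 and 65.2 to 16.9 and 13.7 CPM, a log2 fold change of -2.21 ± 0.09 (SE) and an adjusted p of 4e-12, while Adamts4, another aggrecanase, rose from 6.81 and 8.21 to 15.1 and 12.3 CPM (0.89, adjusted p = 0.000291). Timp3, the inhibitor of these enzymes, rose from 744 and 678 to 1642 and 1603 CPM, a log2 fold change of 1.19, and overlaps Syn3 on the opposite strand. The others were Adamts15 (1.33) and Timp2 (0.27), which rose, and Adamts1 (-1.18), Adamts9 (-0.29) and Timp1 (-0.67), which fell. The call of Adamts15 was lost without GFP + IL-1β replicate 1 (1.04, adjusted p = 0.124) and without Cre + IL-1β replicate 1 (0.94, adjusted p = 0.13). The 2 aggrecanases Adamts5 and Adamts4 lay in opposite directions in the same libraries, and the groups overlapped for neither.

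The 4 metalloproteinase genes of chromosome 9 that fell are shown with the letters TGAGTCA, the core to which AP-1 binds, in capitals (TGACTCA where the match is on the other strand). Each line is bases -120 to -21 before the RefSeq start of the gene on GRCm38.p6, plus strand.
Mmp3 (chr9:7445702-7445801): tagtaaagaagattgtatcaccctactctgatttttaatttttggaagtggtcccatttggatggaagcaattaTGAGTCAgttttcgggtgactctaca
Mmp13 (chr9:7272394-7272493): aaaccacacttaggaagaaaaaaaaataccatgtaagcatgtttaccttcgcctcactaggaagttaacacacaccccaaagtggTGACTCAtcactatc
Mmp10 (chr9:7502222-7502321): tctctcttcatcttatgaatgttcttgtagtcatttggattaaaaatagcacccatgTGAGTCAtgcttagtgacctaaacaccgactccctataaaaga
Mmp12 (chr9:7347254-7347353): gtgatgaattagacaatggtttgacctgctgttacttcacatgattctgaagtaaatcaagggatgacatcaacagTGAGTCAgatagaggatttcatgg
With the start counted as 0, the match began at -46 in Mmp3, -35 in Mmp13, -63 in Mmp10 and -44 in Mmp12. In windows of 250 bases before to 50 after a start, on both strands, TGAGTCA was found in 5.2% of 32851 windows, in 4 of the 4 metalloproteinases that fell and have a window, and in 0 of the 3 that rose and have one. It was also in 0 of the 3 with a window that did not pass the test. The 4 genes are neighbours on chromosome 9, so their matches cannot be taken as independent. Among chemokines with a window, TGAGTCA was in 1 of 6 that fell, 0 of 2 that rose and 1 of 2 not called. These letters and those given below for chemokines are 2 of 10 spellings searched, shown because they matched, and a match is a description of the letters alone.

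Chemokines fell more often than they rose. Of 15 CXC and CC chemokines tested (Cx3cl1, of the CX3C class, is counted with them), 8 fell and 4 rose, with a median log2 fold change of -0.54. Without IL-1β 2 fell and 6 rose (median 0.40). Cxcl1, a neutrophil attractant, fell from 397 and 429 to 96.4 and 96.9 CPM, a log2 fold change of -2.09 ± 0.06 (SE) and an adjusted p of 8.54e-14. Cxcl3 and Cxcl5, of the same family, had log2 fold changes of -2.59 and -1.71, and Ccl9 fell from 16.6 and 14.7 to 1.25 and 1.89 CPM (-3.38). Ccl2, the monocyte attractant, went the other way, from 261 and 367 to 404 and 539 CPM, a log2 fold change of 0.59 ± 0.06 (SE) and an adjusted p of 2.64e-07. Cxcl16, a membrane-bound chemokine, rose from 3.5 and 2.98 to 25.8 and 27.9 CPM, a log2 fold change of 3.03, and overlaps Zmynd15 on the opposite strand.

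The other 4 that fell were Cxcl2, described next, Cxcl12 (-1.19), Cxcl10 (-0.54) and Ccl7 (-0.43), and the other 2 that rose were Cx3cl1 (0.45) and Cxcl14 (0.41).

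A spelling in 10 letters of the site that NF-κB binds, given in capitals in the lines that follow, was found on either strand of the windows of 3 of the 6 chemokines that fell and have a window, against 0.0883% of all 32851 windows. It was in 0 of the 2 that rose and have one and in 0 of the 2 not called. The 3 genes are Cxcl1, Cxcl2 and Cxcl3, neighbours on chromosome 5 with related sequences, and bases -120 to -21 are shown with the match in capitals (GRCm38.p6, plus strand).
Cxcl1 (chr5:90891125-90891224): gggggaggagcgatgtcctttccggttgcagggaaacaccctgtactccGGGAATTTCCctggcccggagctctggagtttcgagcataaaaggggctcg
Cxcl2 (chr5:90903779-90903878): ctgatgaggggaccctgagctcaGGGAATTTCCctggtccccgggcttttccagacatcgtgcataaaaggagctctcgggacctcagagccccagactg
Cxcl3 (chr5:90785981-90786080): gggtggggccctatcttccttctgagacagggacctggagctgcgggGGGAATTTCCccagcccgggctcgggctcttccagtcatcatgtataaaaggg
Cxcl2 had a log2 fold change of -1.58 and an adjusted p of 3.25e-08.

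Acute-phase genes fell more often than they rose, and cytokines split by member. Il6 fell from 22.7 and 24.6 to 5.51 and 6.19 CPM, a log2 fold change of -2.01 ± 0.18 (SE) and an adjusted p of 5.84e-08. Tnf, at low levels, rose from 0.629 and 0.587 to 3.22 and 4.4 CPM, a log2 fold change of 2.61 (adjusted p = 5.98e-05). Falls were also seen for Tnfrsf11b (-1.59), described further below, and Il1rl1, a receptor for a related cytokine (-1.53). Among 15 cytokines and growth factors of inflammation tested 6 fell and 4 rose, with a median of -0.34. Among 20 acute-phase and innate effectors 12 fell and 2 rose, with a median of -1.03 and no change in the count of falls when any of the 4 libraries was left out. Lcn2, which encodes the iron-trapping protein lipocalin-2, fell from 3566 and 3615 to 1619 and 1758 CPM (-1.09, adjusted p = 7.43e-11). Ptgs2, the cyclooxygenase of prostaglandin synthesis, fell from 282 and 273 to 69.6 and 66.6 CPM. Nos2, the inducible nitric oxide synthase, had a log2 fold change of -1.38, C1ra, a complement protease, of -2.13, and Ptx3, a pentraxin that binds microbes, of -1.88.

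The 2 acute-phase and innate genes that rose were Ptges and Acod1. Ptges, the synthase that acts after Ptgs2 in making prostaglandin E2, rose from 43.2 and 42.3 to 140.0 and 135 CPM, a log2 fold change of 1.68 (adjusted p = 1.57e-11). Acod1, which makes itaconate, had 2 counts over the GFP + IL-1β libraries and 249 over the Cre + IL-1β libraries, a ratio of 161 in counts over library totals, without the TMM factors, with a 95% exact counting interval of 44.1 to 1337, and its call was lost with DESeq2 (adjusted p = 0.209).

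Nfkbiz, which encodes the NF-κB partner IκB-ζ, fell from 181 and 171 to 73.1 and 69.9 CPM, a log2 fold change of -1.30 ± 0.07 (SE) and an adjusted p of 9.3e-11. Without IL-1β it stood at 19.5 and 15.7 CPM with GFP and 19 and 18.4 CPM with Cre, a log2 fold change of 0.08 (adjusted p = 0.632), and the groups overlapped. The effect of Cre on Nfkbiz therefore differed with IL-1β by -1.38 on the log2 scale (adjusted p = 7.88e-08). Of 18 NF-κB subunits and inhibitors 7 rose and 7 fell, with a median of 0.06, and without GFP + IL-1β replicate 1 only 4 rose. Ikbke, an IκB kinase-related gene, rose by 1.41 and Tnip1, an inhibitor of the pathway, by 0.87, with no overlap of the groups for either. Ikbke overlaps 2 predicted genes on the opposite strand. Nfkbia and Nfkbie, which encode inhibitors that NF-κB itself induces, had log2 fold changes of 0.72 and 0.98, and Rela, a main subunit, of 0.10 (adjusted p = 0.333).

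Lactate and pyruvate handling changed beyond Ldha itself. Slc16a1, the monocarboxylate transporter that carries lactate across the membrane, fell from 346 and 388 to 141 and 132 CPM, a log2 fold change of -1.42 ± 0.07 (SE) and an adjusted p of 1.58e-11, where GFP libraries without IL-1β stood at 150.0 and 169 CPM. Pdhb, a subunit of pyruvate dehydrogenase, rose from 35.6 and 37 to 85.4 and 72.6 CPM (1.12, adjusted p = 4.53e-09), and Pdk4, a kinase that switches that enzyme off, rose from 2.82 and 4.2 to 8.01 and 7.39 CPM (1.18, adjusted p = 0.000305). Pdk1, another such kinase, had -0.71, and Slc16a3, a transporter that exports lactate, -0.40. In all, 10 of 20 genes of lactate and pyruvate handling fell and 5 rose, with a median of -0.10, and the count of rises was 3 without GFP + IL-1β replicate 1 or without Cre + IL-1β replicate 1.

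Glycolytic genes moved little for most members. Of 19 tested, 8 fell and 3 rose, with a median of -0.09, and 5 fell without GFP + IL-1β replicate 2. Gapdh had a log2 fold change of -0.43 and Pfkl, a phosphofructokinase subunit, of -0.50. Pfkfb4, a regulator of phosphofructokinase, rose from 5.36 and 6.16 to 31.2 and 30.0 CPM, a log2 fold change of 2.42 (adjusted p = 1.2e-10). Pkm, pyruvate kinase, had -0.08 (adjusted p = 0.205). The glucose transporter Slc2a1 had -0.10 (adjusted p = 0.168), which passed the threshold at 0.0307 without Cre + IL-1β replicate 2. Hk2, which encodes a hexokinase, had -0.20 (adjusted p = 0.0164), a call lost without GFP + IL-1β replicate 2 (-0.12, adjusted p = 0.3) and without Cre + IL-1β replicate 2 (-0.13, adjusted p = 0.117).

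Of 18 hypoxia-inducible genes 10 fell and 2 rose, with a median of -0.22, while without IL-1β 0 fell and 7 rose (median 0.16). The effect of Cre differed with IL-1β for 21.2% of all genes tested, toward higher under IL-1β for 10.7% and toward lower for 10.5%, and was lower under IL-1β for 14 of the 18. Vegfa, the vascular growth factor, had a log2 fold change of -0.62, and Plod2, which modifies collagen lysines, of -0.81. The 2 that rose were Egln3, an oxygen-sensing hydroxylase (1.27), and Mxi1 (0.45), and 1 rose without Cre + IL-1β replicate 1.

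Mitochondrial and NAD genes changed by unequal amounts. Of 80 nuclear genes of the respiratory chain and ATP synthase 34 rose and 2 fell, with a median of 0.14, but 12 rose without GFP + IL-1β replicate 1, 16 without Cre + IL-1β replicate 1 and 13 with no library-set block, and 6 fell without Cre + IL-1β replicate 1 and 1 without either replicate 2. Of 19 citrate cycle genes 9 rose and 1 fell, but 4 rose without GFP + IL-1β replicate 1 and 5 without Cre + IL-1β replicate 1, and 2 fell without either of these or without Cre + IL-1β replicate 2. Idh2, the mitochondrial isocitrate dehydrogenase that makes NADPH, had 0.71 (adjusted p = 5.63e-07), and Idh1, its cytosolic counterpart, had -0.70 (adjusted p = 1.94e-05). Slc25a13, an aspartate-glutamate carrier of the shuttle that brings cytosolic NADH electrons into mitochondria, rose from 14.2 and 11.7 to 27.3 and 26.3 CPM (1.05, adjusted p = 4.16e-07). Nmnat3, the NAD synthase assigned to mitochondria, fell from 48.8 and 47.2 to 5.68 and 5.09 CPM, a log2 fold change of -3.15 ± 0.11 (SE) and an adjusted p of 6.08e-13. Cd38, an enzyme that consumes NAD, rose from 0.109 and 0 to 4.89 and 3.98 CPM (adjusted p = 6.53e-07). Nampt, the rate-limiting enzyme of NAD salvage, fell from 87.1 and 78.4 to 60.3 and 54.7 CPM (-0.53).

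Antioxidant genes that NRF2 controls fell. Of 20 NRF2 targets and glutathione genes 14 fell and 3 rose, with a median of -0.73, and without IL-1β 3 fell and 0 rose (median -0.10). Slc7a11, the cystine importer, fell from 193 and 188 to 38.7 and 39.4 CPM, a log2 fold change of -2.29 ± 0.07 (SE) and an adjusted p of 6.02e-14, and stood at 39 and 41.8 CPM in GFP libraries without IL-1β. Hmox1, heme oxygenase, fell from 1265 and 1271 to 427 and 415 CPM (-1.59), and Gclc and Gclm, the subunits of the enzyme that starts glutathione synthesis, had log2 fold changes of -1.37 and -1.15. The 3 that rose were Mgst1 (1.21), Gstm2 (0.49) and Gstp1 (0.48), all of them glutathione transferases. Gsta1 had 237 counts over the GFP + IL-1β libraries and 2 over the Cre + IL-1β libraries, a ratio of 91.6 (25.1 to 761) in counts over library totals, without the TMM factors.

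Of 25 enzymes that make or remove reactive oxygen 11 fell and 5 rose, with 3 rises without GFP + IL-1β replicate 1. Prdx6 and Gpx3, which remove peroxides, had log2 fold changes of -1.06 and -1.19, and Cyba, a membrane subunit of NADPH oxidases, of 0.92. Sod2, the mitochondrial superoxide dismutase, fell from 405 and 417 to 119 and 130.0 CPM, a log2 fold change of -1.73 (adjusted p = 1.96e-13). The NADPH oxidase gene Cybb stood at 1.12 and 1.22 CPM with GFP and 0.763 and 1.78 CPM with Cre, overlapping groups with a log2 fold change of -0.01 (adjusted p = 0.988) that was 0.38 without GFP + IL-1β replicate 1 and 0.32 without Cre + IL-1β replicate 1. Nox4, another NADPH oxidase, had 1.21 (adjusted p = 0.0527), with 1.89 and an adjusted p of 0.0115 without Cre + IL-1β replicate 1.

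Cartilage matrix genes fell. Of 21 cartilage matrix genes 17 fell and 0 rose, with a median of -0.87, against -0.47 without IL-1β, where 16 fell. Hapln1, the link protein that fastens aggrecan to hyaluronan, fell from 279 and 260.0 to 29.9 and 32.9 CPM, a log2 fold change of -3.11 ± 0.07 (SE) and an adjusted p of 1.19e-15. Col2a1, type II collagen, fell from 21077 and 22057 to 12648 and 11750 CPM (-0.82), and Acan, aggrecan, from 1527 and 1424 to 809 and 830.0 CPM (-0.85). In each of these genes the 2 Cre + IL-1β libraries lay under every other library of the line. Ucma and Cnmd, cartilage-specific secreted and membrane proteins, had log2 fold changes of -2.16 and -1.77, and Prg4, lubricin, of -2.67.

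Transcription factors of chondrocytes fell by unequal amounts. Of 16 chondrocyte factors and hypertrophy genes 13 fell and 1 rose (Ihh, 0.57), with 0 rises when any of the 4 libraries was left out. Sox5 and Sox6, the partners of Sox9, had log2 fold changes of -1.70 and -1.55. Sox9, the master factor of the lineage, fell from 343 and 353 to 273 and 313 CPM, a log2 fold change of -0.25 ± 0.06 (SE) and an adjusted p of 0.00287. Trps1, a repressor of hypertrophy, had -1.48. Of 27 BMP, IGF and Wnt secreted factors 18 fell and 7 rose. Bmp5 had a log2 fold change of -2.90, Bmp3 of -3.39 and Chrdl1, a BMP antagonist, of -2.56, while Bmp7 had 1.91. Epyc, a small proteoglycan of cartilage, and Dcn, decorin, were among the 12 lower genes with the smallest p-values, with log2 fold changes of -2.46 and -2.51.

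Markers of other cell types moved by list. The summed CPM in this paragraph are counts over library totals, without the TMM factors, while Kdr is scaled with them. Fibroblast and perichondrium markers summed to 27729 and 25760 CPM with GFP and 15871 and 15382 CPM with Cre, with 9 of 12 lower and 1 higher, and macrophage and leukocyte markers to 52.4 and 53.2 against 39.1 and 40.1 CPM, with 4 of 11 lower, 0 higher and Aif1 under 1 CPM in all 4 libraries. Osteoblast and osteoclast markers went from 88.7 and 78.6 to 43.1 and 39.2 CPM (3 of 6 lower). Endothelial markers went the other way, from 9.03 and 8.78 to 30.2 and 24.0 CPM (2 of 5 higher, and 1 without either GFP + IL-1β library or without Cre + IL-1β replicate 1). Within them Kdr, a receptor for vascular growth factor, rose from 1.72 and 1.71 to 18.6 and 14.6 CPM (3.28, adjusted p = 4.22e-10), most of the rise in the sum. The other called member, Vwf, lost its call with no library-set block (0.62, adjusted p = 0.0527), and 3 of the 5 were not called. Cldn5 and Emcn were under 1 CPM in all 4 libraries. The sum thus mainly follows 1 gene. Muscle markers went from 239 and 232 to 191 and 196 CPM, with 4 of 8 lower and 2 higher, but 2 lower without either replicate 2 and 1 higher without GFP + IL-1β replicate 1. Erythroid markers went from 5.16 and 4.58 to 2.57 and 1.97 CPM, with 1 of 2 lower and 0 without either replicate 2. The cartilage matrix genes that define the labelled cell type summed to 30645 and 30148 CPM with GFP and 19383 and 17283 CPM with Cre, and 0 markers were at 0 in all 4 libraries. The part of these shifts in the other results was not tested.

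**Figure D2:**
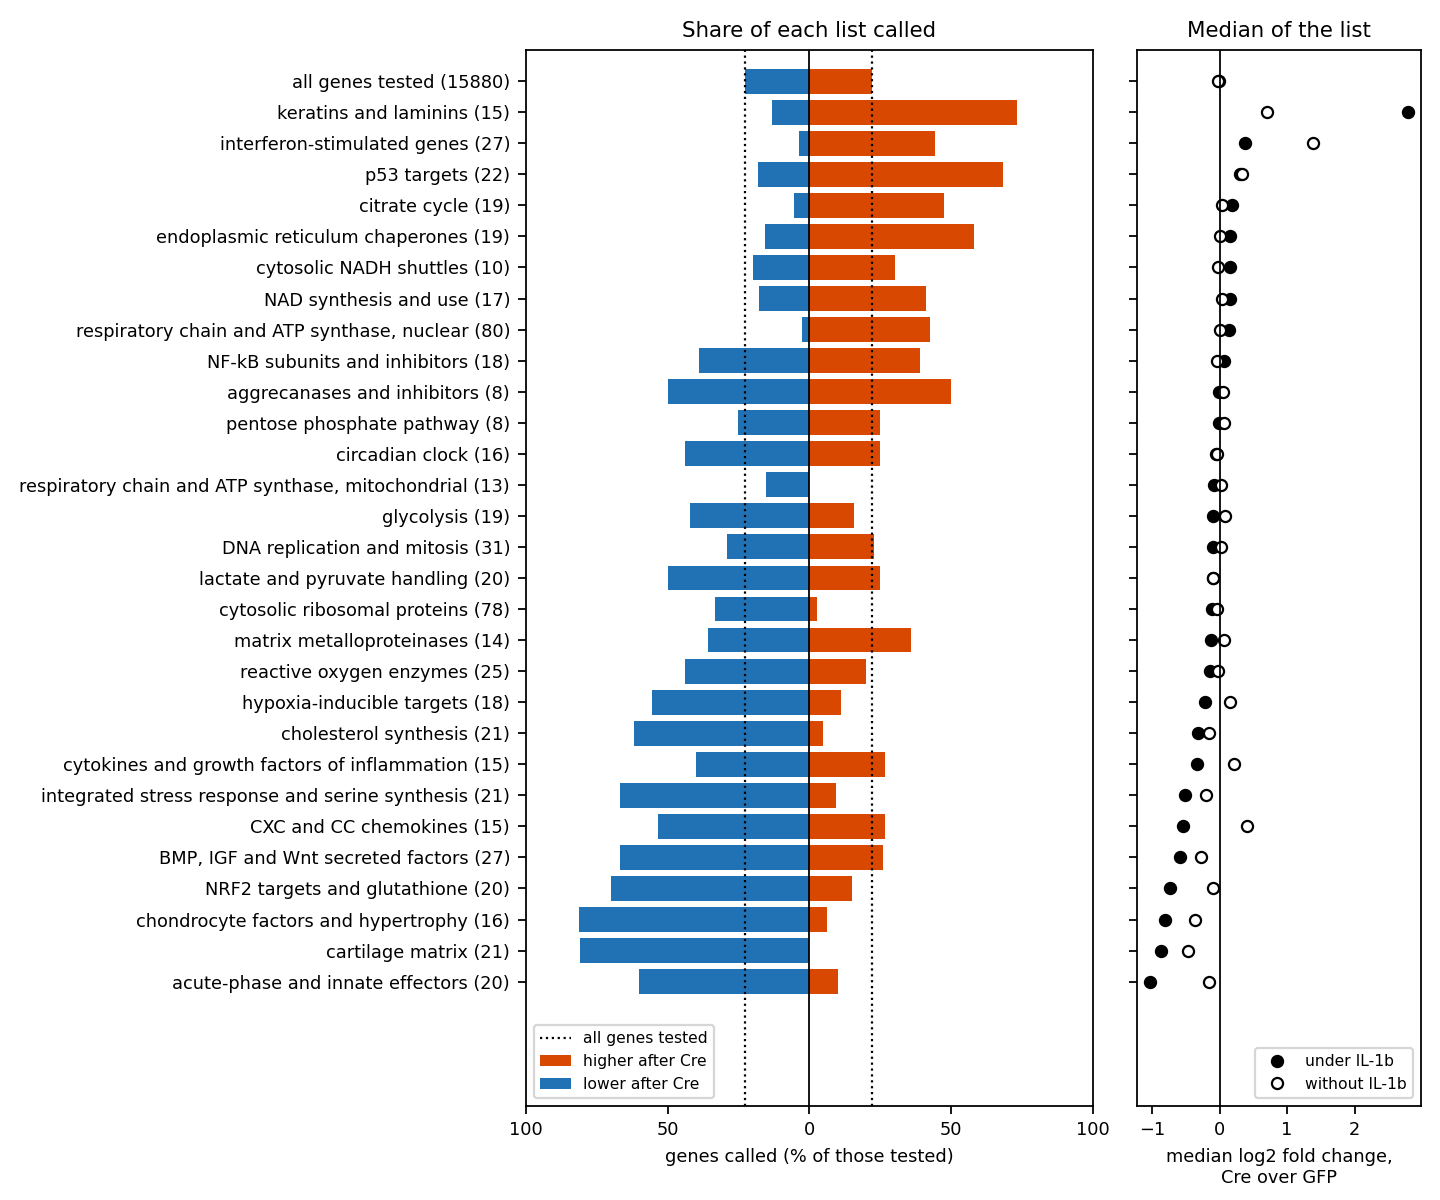
Share of each gene list called higher (orange) or lower (blue) in Cre + IL-1β, in percent of the members tested (number in brackets), with dotted lines at the shares over all 15880 genes tested, and beside it the median log2 fold change of each list with (filled) and without (open) IL-1β. Of the lists plotted, from which marker lists and lists of IL-1β genes were left out, acute-phase, cartilage matrix and chondrocyte lists have the lowest medians under IL-1β and keratins and laminins the highest, with a median of 2.79. The keratin and laminin list was written with such rises known, so its place is no independent support.

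Genes typical of epithelia rose. Of 15 keratins and laminins tested 11 rose and 2 fell, with a median of 2.79, and without IL-1β 10 rose (median 0.71). This list was written with such rises known. A gene was tested if it exceeded 1 CPM in at least 1 library, which under IL-1β Krt7 and Krt8 did only with Cre. Krt14 and Krt20 did not reach that level and were not tested. The share that rose and the median are therefore no independent support. Krt7, an epithelial keratin, stood at 0.246 and 0.196 CPM with GFP and 85.4 and 79.2 CPM with Cre, a log2 fold change of 8.47 ± 0.16 (SE) and an adjusted p of 2.58e-16. Krt18 rose from 1.34 and 0.88 to 65.7 and 55.2 CPM and its partner Krt8 from 0.547 and 0.391 to 34.1 and 29.8 CPM. Laminin chains of basement membranes, which epithelial cells rest on, rose too: Lama5 from 24.2 and 23.6 to 235 and 225 CPM and Lamb3 from 12.8 and 13.4 to 138 and 131 CPM. Krt19, Krt5 and Krt80 had log2 fold changes of 5.73, 3.10 and 2.79, and the 2 chains that fell, Lama4 and Lamb2, of -1.16 and -0.89. Itga3, an integrin that binds laminin, rose 7.77-fold on the mean, and Col7a1, the anchoring collagen of skin, rose 35.1-fold.

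Other genes with the largest rises came from signalling and transport. Wnt7a had 0 counts in GFP + IL-1β and 41.7 and 39.9 CPM in Cre + IL-1β, at least 847-fold higher on counts over library totals without the TMM factors, where the Cre + IL-1β group stood at 44.0 CPM and a floor of 3 counts over the GFP + IL-1β group at 0.0519 CPM. Hoxd9, a homeobox factor of the limb, rose from 0.601 and 0.391 to 55.6 and 84.6 CPM (6.96, adjusted p = 9.14e-15). Aqp3, a water and glycerol channel, rose from 0.109 and 0.0978 to 21.7 and 22.4 CPM, and in libraries without IL-1β it stood under 0.5 CPM with either virus. Ngfr, the p75 neurotrophin receptor, rose 20.8-fold, Tinagl1, a matrix protein, 13.7-fold, and Ccnd1, cyclin D1, 5.47-fold, from 133 and 139 to 738 and 752 CPM. Ccnd1 overlaps LTO1 on the opposite strand.

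Stress and growth programmes moved in both directions. Of 22 p53 targets 15 rose and 4 fell, and leaving out each library in turn left 1 or 2 that fell. Pmaip1, which promotes apoptosis, rose from 5.99 and 4.64 to 22.7 and 20.2 CPM (2.01), and Ccng1, an atypical cyclin, and Cdkn1a, the cell cycle inhibitor, had log2 fold changes of 0.86 and 0.42. Of 21 genes of the integrated stress response and serine synthesis 14 fell and 2 rose. Atf4, its main factor, had a log2 fold change of -0.86 and Trib3, its target, of -1.32, and the 2 that rose were Gdf15 (0.59) and Phgdh (0.15), with 1 left without either GFP + IL-1β library or without Cre + IL-1β replicate 1. Of 19 endoplasmic reticulum chaperones 11 rose and 3 fell, with Sdf2l1 at 0.72, and 6 rose without GFP + IL-1β replicate 1. Of 21 cholesterol synthesis genes 13 fell and 1 rose, with Lss and Cyp51 at -0.73 and -0.69. Of 27 interferon-stimulated genes 12 rose and 1 fell (median 0.38), with 6 rises without GFP + IL-1β replicate 2 and 0 falls without either GFP + IL-1β library or without Cre + IL-1β replicate 1. Bst2, which tethers viruses, rose from 17.6 and 25 to 40.2 and 49.1 CPM.

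Other lists gave these counts. Of 31 genes of DNA replication and mitosis 9 fell and 7 rose, with 3 to 7 rises when 1 library was left out: 3 without either GFP + IL-1β library and 4 without Cre + IL-1β replicate 1. Of 78 cytosolic ribosomal protein genes 26 fell and 2 rose, with a median of -0.11, and the falls numbered 8 without GFP + IL-1β replicate 2, 51 without Cre + IL-1β replicate 1 and 6 with no block. The rises were 11 without Cre + IL-1β replicate 2 and 0 without either replicate 1. Of 17 genes of NAD synthesis and use 7 rose and 3 fell, with 3 rises without GFP + IL-1β replicate 1 and 4 without GFP + IL-1β replicate 2 or Cre + IL-1β replicate 1. Of 16 circadian clock genes 7 fell and 4 rose, with Per3 at -1.72 and Per2 at -1.28. Of 13 respiratory chain genes of the mitochondrial genome 2 fell and 0 rose, but 0 fell and 3 rose without GFP + IL-1β replicate 1, 0 fell and 4 rose without Cre + IL-1β replicate 1, 1 fell without GFP + IL-1β replicate 2 and 8 fell without Cre + IL-1β replicate 2. Of 8 pentose phosphate genes 2 fell and 2 rose, the rises numbering 0 without GFP + IL-1β replicate 1 or 2 or Cre + IL-1β replicate 1 and 1 without Cre + IL-1β replicate 2, and of 10 genes of the cytosolic NADH shuttles 3 rose and 2 fell, with 1 fall without GFP + IL-1β replicate 1 or 2 or Cre + IL-1β replicate 2.

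Several of the most negative log2 fold changes belonged to genes that were higher in GFP virus libraries than in libraries with no virus. Fem1a, a substrate receptor of a ubiquitin ligase, stood at 951 and 1010 CPM in GFP + IL-1β and 47 and 47.3 CPM in Cre + IL-1β, a log2 fold change of -4.38 ± 0.11 (SE) and an adjusted p of 6.64e-15. In the 8 virus-free wild-type libraries it ranged from 41.1 to 57.4 CPM (scaled by library total), around the level of the Cre libraries. Tmem130, a membrane protein, stood at 1328 and 1693 CPM with GFP and 126 and 136 CPM with Cre, and at no more than 0.512 CPM in virus-free libraries, under both groups. Hspa1a and Hspa1b, the inducible heat shock proteins, share nearly all of their coding sequence, so their counts are uncertain between them. Hspa1b went from 698 and 833 to 32.6 and 32.8 CPM and Hspa1a from 296 and 418 to 17 and 19.1 CPM, with at most 11.3 and 3.24 CPM in virus-free libraries. In the other lines under IL-1β the log2 fold change of Cre over GFP for Fem1a was -4.88 in Nampt f/f and -4.05 in Nfkbiz f/f, and for Hspa1b it was -4.93 and -4.07. For these 4 genes the Cre + IL-1β libraries of Ldha f/f lay nearer to the virus-free libraries than the GFP + IL-1β libraries did.

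Krt7 and Hoxd9 had the reverse pattern. Krt7 ranged from 0.16 to 3.62 CPM and Hoxd9 from 0.216 to 0.996 CPM in virus-free libraries, which takes in or lies close to the GFP + IL-1β libraries and lies far under the Cre + IL-1β libraries.

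**Figure D3:**
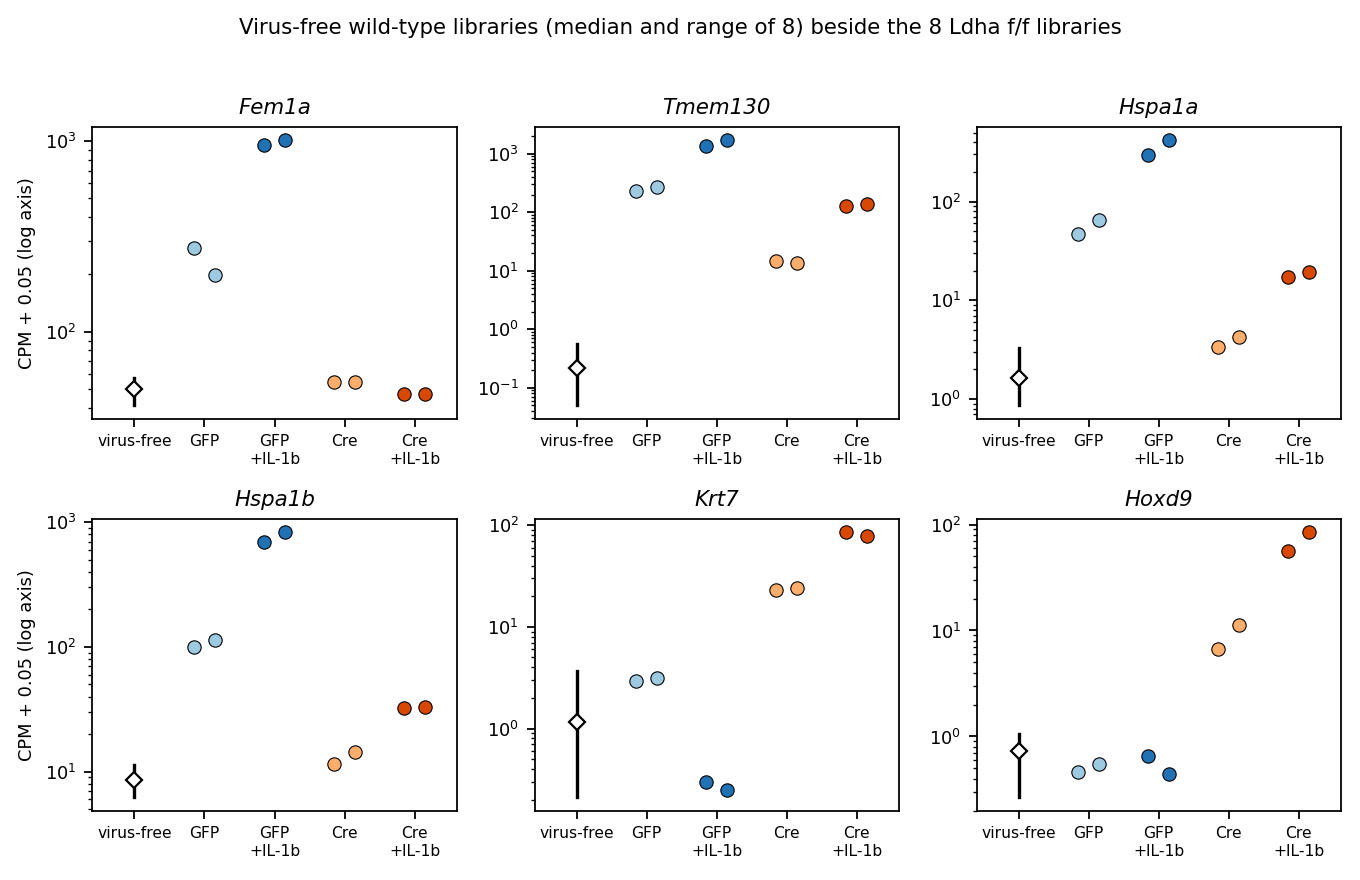
CPM plus 0.05 on a log axis for 6 genes in 8 virus-free wild-type libraries (diamond at the median, bar from lowest to highest, scaled by library total) and in the 8 Ldha f/f libraries (circles, scaled with TMM factors). Fem1a, Tmem130, Hspa1a and Hspa1b lie highest in GFP + IL-1β, and Krt7 and Hoxd9 in Cre + IL-1β.

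Fewer genes passed the test without IL-1β than with it, as given above. Between the comparisons with and without IL-1β, which share no library, 1624 genes were called in both, 22.8% of those called with IL-1β and 81.4% of those called without it. Of these 1528 had the same sign, and in 1248 of the 1528 the change was larger under IL-1β. The effect of Cre itself differed with IL-1β for 3374 genes (21.2%), 1703 toward higher and 1671 toward lower, with 1825 when the library set was not a block and 2156 without GFP + IL-1β replicate 1. The other 96 of the 1624 genes had opposite signs, and all 96 were among the 3374. Calls in opposite directions in the same fit make this close to certain, so it adds no support.

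The difference with IL-1β was large for several of the genes named here. For Mmp3 it was -1.95 on the log2 scale (SE 0.27, adjusted p = 5.34e-05), for Mmp13 -1.66 (adjusted p = 7.92e-10) and for Cxcl1 -2.20 (adjusted p = 4.39e-06). For Il6 it was -1.75 ± 0.55 (SE, adjusted p = 0.0294), and without IL-1β Il6 was under 1 CPM with either virus. For Hapln1 it was -2.43 and for Slc7a11 -2.10. Tnfrsf11b, the decoy receptor osteoprotegerin, rose after Cre without IL-1β (0.40, adjusted p = 0.000776) and fell with it (-1.59, adjusted p = 4.07e-11), from 54 and 49.5 to 17.2 and 17.2 CPM. Cxcl3 was under 1 CPM without IL-1β, and for it the difference was -3.87 (adjusted p = 0.000836). For Ccl2 (-0.14, adjusted p = 0.449), Acan (-0.21, adjusted p = 0.063) and Sox9 (0.07, adjusted p = 0.623) the difference did not pass the threshold. Of 27 interferon-stimulated genes 24 rose without IL-1β (median 1.39), and the effect of Cre was lower under IL-1β for 11 of them and higher for 0.

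**Figure D4:**
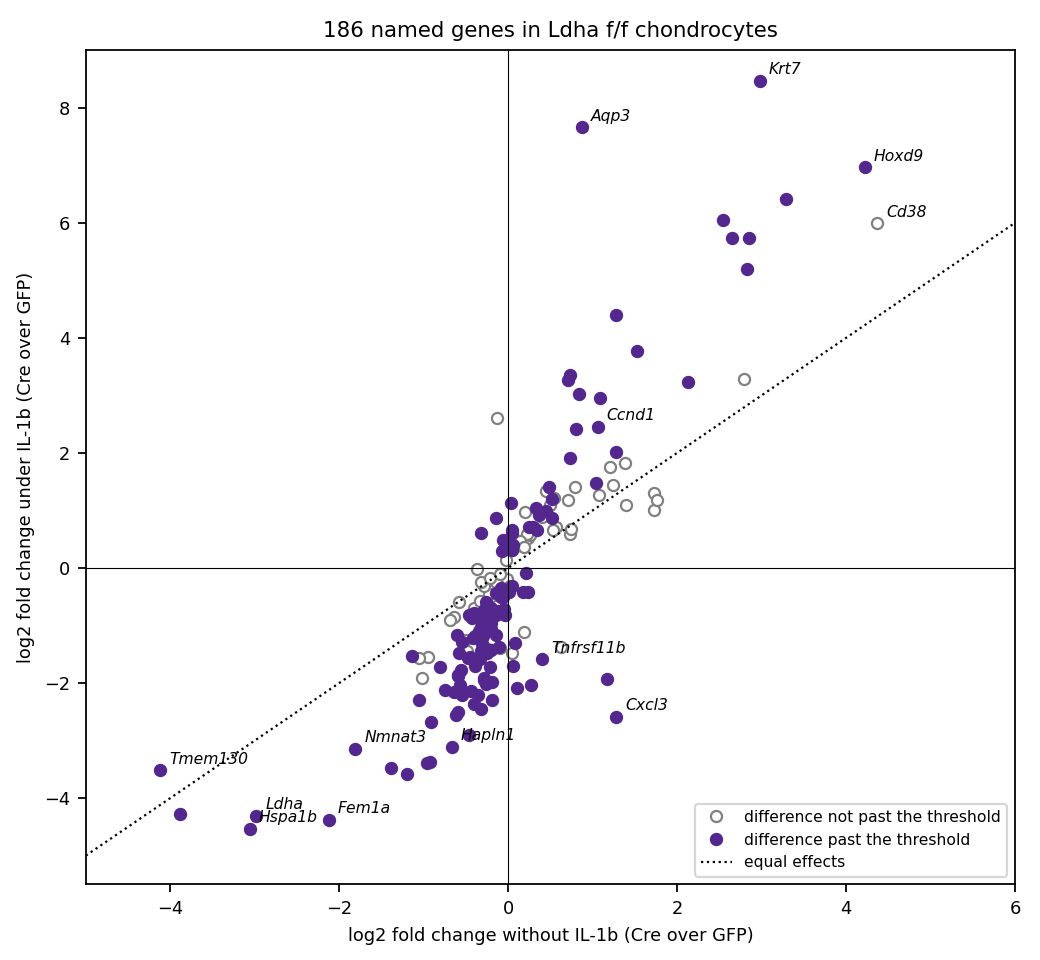
Log2 fold change of Cre over GFP under IL-1β (vertical) against that without IL-1β (horizontal) for 186 named genes of Ldha f/f chondrocytes, filled where the difference between the 2 effects had an adjusted p of 0.05 or less. The dotted line marks equal effects. Many of these genes were chosen for their change under IL-1β, so distance along the vertical axis is not a finding. Tnfrsf11b and Cxcl3 lie on opposite sides of 0 on the 2 axes.

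Genes that respond to IL-1β were taken from the GFP libraries of the Nampt f/f and Nfkbiz f/f lines, which share no library with the Ldha f/f comparison. There 1188 genes were called and at least 2-fold higher and 540 called and at least 2-fold lower with IL-1β. Of 1085 higher genes tested in Ldha f/f, 425 fell after Cre under IL-1β (39.2%) and 240 rose, with a median log2 fold change of -0.28. Of 511 lower genes tested 179 fell and 131 rose, with a median of -0.16. Without IL-1β, 76 of the 1085 fell and 186 rose, and of the 511 157 fell and 13 rose. The effect of Cre differed with IL-1β for 388 of the 1085 and for 216 of the 511, against 21.2% of all genes tested. Of the 388, 315 were toward lower under IL-1β, and of the 216, 84 were.

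Few genes differed between Nampt f/f and Ldha f/f in the effect of Cre under IL-1β. In a fit of the 24 libraries of the 3 floxed lines over 16727 genes, 8215 (49.1%) were called in Nampt f/f and 6283 in Ldha f/f. Of these 5443 were shared, 86.6% of the Ldha f/f calls and 66.3% of the Nampt f/f calls, and 5441 of them had the same sign. Over all genes tested the log2 fold changes of the lines had a Pearson r of 0.836, a description across genes, which are not independent replicates. The effect of Cre differed between the lines for 73 genes (0.436%), and this count ranged from 15 to 21 when an Ldha f/f library was left out, with 15 without Cre + IL-1β replicate 2, 16 without GFP + IL-1β replicate 2, 19 without Cre + IL-1β replicate 1 and 21 without GFP + IL-1β replicate 1. It was 246 without the Nfkbiz f/f library that stood apart. With DESeq2 147 genes differed and with limma 650, and at an unadjusted p of 0.05 edgeR gave 2059, so a gene that missed the threshold is not shown to act alike in the lines.

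Both targeted genes were among the 73. Ldha had a log2 fold change of -0.36 in Nampt f/f, where it stood at 1434 and 1344 CPM with GFP and 1119 and 1046 CPM with Cre, and the difference of the lines was -3.97 ± 0.11 (SE, adjusted p = 1.29e-16). Nampt had -3.71 in Nampt f/f, a difference of 3.17 (adjusted p = 3.64e-10). Of the genes named above, Tnfrsf11b fell further in Nampt f/f, at -2.98 (difference 1.37, adjusted p = 8.51e-07), as did Slc7a11 at -2.90 (difference 0.60, adjusted p = 0.0144) and Trps1 at -2.17 (difference 0.67, adjusted p = 0.0141). Ldha-ps2 had -0.23 there (difference -5.78, adjusted p = 1.29e-07). Ngfr rose more there, at 5.66 (difference -1.28, adjusted p = 0.00961), as did Pdhb at 1.73 (difference -0.63, adjusted p = 0.0381), Bmp7 at 2.62 (difference -0.73, adjusted p = 0.0343), Krt80 at 4.00 (difference -1.24, adjusted p = 0.0149) and Tinagl1 at 4.48 (difference -0.72, adjusted p = 0.04). For Mmp3 the lines differed by 0.12 ± 0.14 (SE, adjusted p = 0.772), for Mmp13 by 0.25 ± 0.15 (SE, adjusted p = 0.539) and for Il6 by 0.85 ± 0.25 (SE, adjusted p = 0.146), none past the threshold.

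The Nfkbiz f/f line differed more. There 4217 genes (25.2%) were called, 2368 of them shared with Ldha f/f, which is 37.7% of the Ldha f/f calls and 56.2% of the Nfkbiz f/f calls, and 1765 of the shared genes had the same sign. The Pearson r across genes was 0.317. The effect of Cre differed between the lines for 4382 genes (26.2%). Lcn2, Il6 and Cxcl1 fell less in Ldha f/f than in Nfkbiz f/f: Lcn2 had -4.77 in Nfkbiz f/f, a difference of 3.66 (adjusted p = 1.79e-13), Il6 had -5.34, a difference of 3.30 ± 0.30 (SE, adjusted p = 2.86e-08), and Cxcl1 had -3.63, a difference of 1.52 (adjusted p = 8.38e-09). Ptges fell in Nfkbiz f/f (-1.86) and rose in Ldha f/f, a difference of 3.52. Mmp13 fell more in Ldha f/f, a difference of -0.73 ± 0.15 (SE, adjusted p = 0.000876), and for Mmp3 the difference of 0.29 did not pass the threshold (SE 0.13, adjusted p = 0.124).

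Cartilage and epithelial genes also set these lines apart. Hapln1 had -0.25 in Nfkbiz f/f, a difference of -2.88 ± 0.18 (SE, adjusted p = 1.04e-10), and Col2a1 rose there by 0.30, a difference of -1.15 (adjusted p = 3.16e-07). Of the 21 genes of the cartilage matrix list 5 fell and 7 rose in Nfkbiz f/f, where 2109 of all 16727 genes fell and 2108 rose. Krt18 had 0.41 (SE 0.48) in Nfkbiz f/f, a difference of 5.30 (adjusted p = 1.48e-06), and Hoxd9 had 0.11, a difference of 6.83 (adjusted p = 1.41e-07). Ldha itself had -0.81 after Cre in Nfkbiz f/f, a difference of -3.52, and Nfkbiz fell less in Ldha f/f than in its own line, a difference of 1.59 ± 0.12 (SE, adjusted p = 1.64e-09). All Nfkbiz f/f libraries belong to set 2, and with the library that stood apart left out 4440 genes differed.

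**Figure D5:**
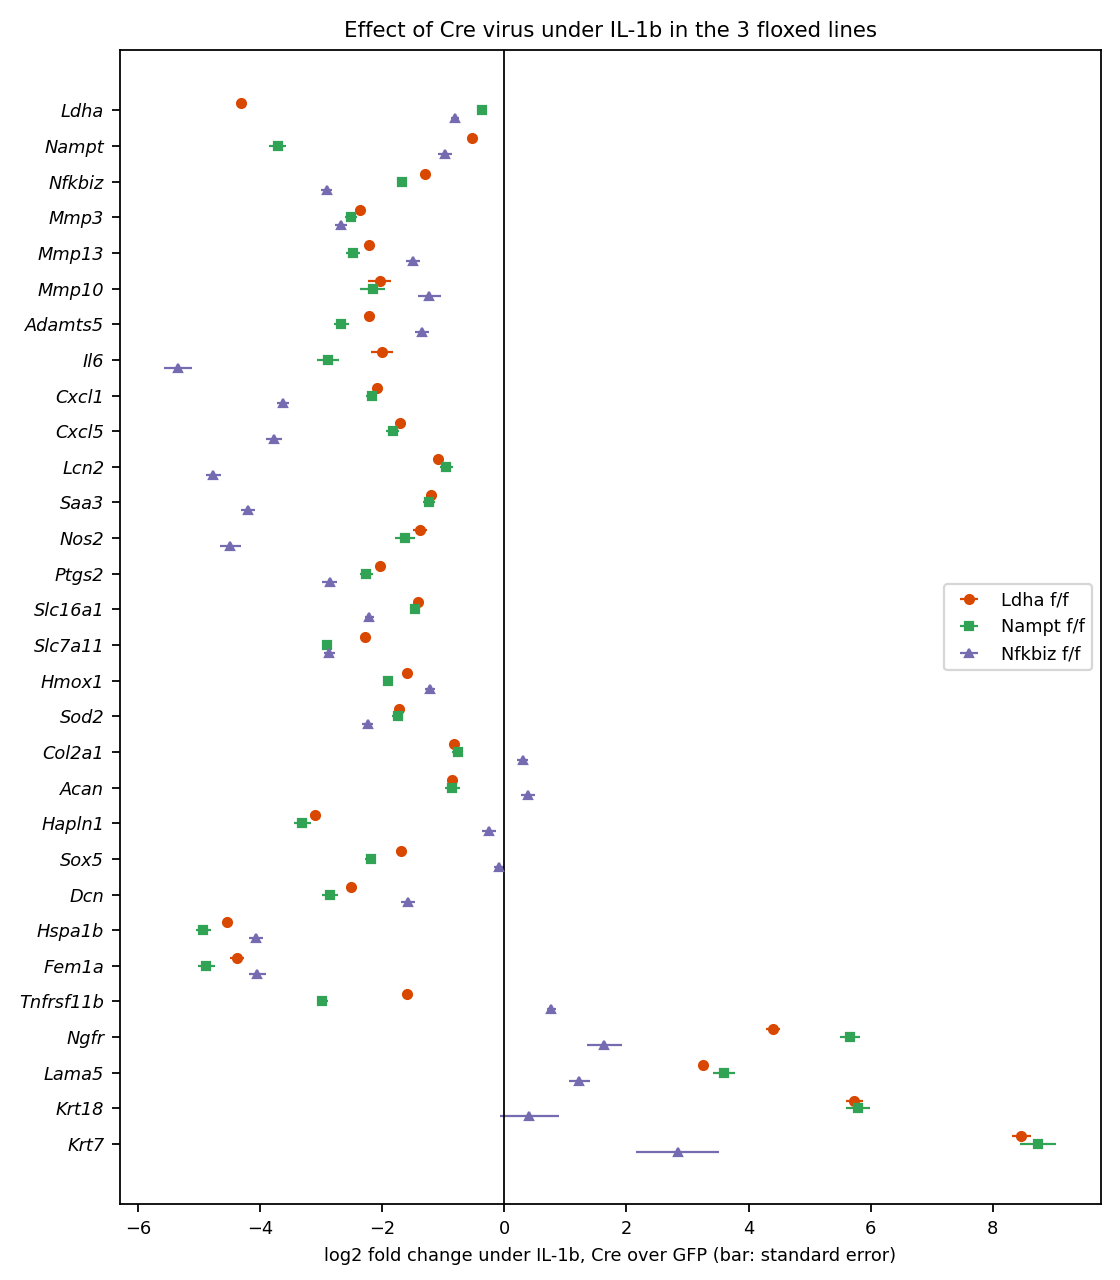
Log2 fold change of Cre over GFP under IL-1β for 30 genes in Ldha f/f (circles, from the fit of its 8 libraries) and in Nampt f/f (squares) and Nfkbiz f/f (triangles), both from the fit of 24 libraries, with bars of 1 standard error. Squares lie near circles for most genes, with Ldha, Nampt, Tnfrsf11b and Ngfr among those apart, and triangles lie farther left for Il6, Lcn2, Saa3 and Nos2 and nearer 0 for Hapln1, Sox5 and Krt18.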

How the data were processed

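Total RNA depleted of ribosomal RNA was sequenced, and the authors aligned reads to the mouse genome (Ensembl release 76, GRCm38) and deposited gene counts. The submitters' processing notes name bcl2fastq, STAR 2.0.4b, Subread and featureCounts 1.45, and the strand setting of the counting is not given in the sources used here. The deposited tables also hold CPM and RPKM columns made by the authors, which were not used. Gene names came from GENCODE M21 for 40254 of 41388 identifiers.

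Counts of the 8 Ldha f/f libraries were fitted with edgeR 4.0.16 (quasi-likelihood test, TMM factors, R 4.3.3), with the library set as a block, after 355 ribosomal RNA genes and genes that did not exceed 1 CPM in at least 1 library were left out. Genes with a Benjamini-Hochberg adjusted p of 0.05 or less were called. Standard errors are the log2 fold change divided by the square root of F. The lines were compared in 1 fit of 24 libraries, from which the CPM of Nampt f/f and Nfkbiz f/f come. Replicate numbers of Ldha f/f go with the library set, and same-numbered libraries deviated together (r of 0.433 to 0.713 over 6 pairs of groups and 9213 genes). The lowest r, 0.433, was that of GFP + IL-1β and Cre + IL-1β, the 2 groups of the main comparison. Replicates of no group agreed within counting noise (chi-square per degree of freedom of at least 6.98). Totals per library were 15830658 to 39959888 counts. Counting intervals and floors cover counting error only. On simulated counts for 15049 genes, 197 of 200 genes changed 2-fold were recovered, with 9 false calls. The simulation gave all genes the same spread, had no library-set effect and changed only well-counted genes. It checks that the code runs as intended, and its rates do not carry over to these data.

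Alternatives were DESeq2 1.42.0, limma 3.58.1 (voom with quality weights), RLE size factors, other filters on low counts, no ribosomal protein genes, the 4 libraries alone, no block, each set alone, and each library left out in turn. Python 3.11.15 with scipy 1.17.1, pandas 2.3.3 and matplotlib 3.10.9 served for tables and plots.

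The members and gene lists were chosen with earlier results of these data known. Named were Ldha, Ldhb, Nfkbiz, Il6, Mmp3 and Mmp13, the 12 called genes of smallest p in each direction, the 8 of largest and the 8 of most negative log2 fold change with a mean of 5 CPM or more, up to 5 called members of largest change in each list, members needed to account for a count of 5 or fewer, and Col2a1, Acan, Sox9, Hk2, Pkm, Slc2a1, Lcn2, Nos2, Cxcl1, Ccl2, Sod2, Cybb and Nox4 whatever their values. Ldha-ps2, Cxcl2, Cxcl10, Cxcl12, Ccl7, Nampt, Nfkbia, Gclm, Pdk1, Slc16a3, Vegfa, Cdkn1a, Rela, Krt5, Krt80, Lama4, Lamb2 and Saa3 were named after their values were seen. Of the genes named, Epyc, Hspa1a, Sox5, Slc2a1, Bmp5, Prg4, Lss, Gclm, Mxi1, Adamts9 and Cxcl10 also overlap a gene on the opposite strand. Promoter letters are RefSeq's for GRCm38.p6, and 10 motif spellings were searched on both strands.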

Additional observations from a re-analysis of the deposited data

Results flagged for a closer look

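The effect of Cre differed with IL-1β in Ldha f/f chondrocytes for 3374 genes, by the test of the difference itself. Among the genes followed throughout, the difference on the log2 scale was -1.33 for Ldha, -1.38 for Nfkbiz, -1.75 for Il6, -1.95 for Mmp3 and -1.66 for Mmp13. Il6 and Mmp3 were near 1 CPM or under it in both groups without IL-1β.

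Between lines, the effect of Cre under IL-1β differed for 73 genes when Ldha f/f was set against Nampt f/f and for 4382 genes when it was set against Nfkbiz f/f. Ldha differed by -3.97 from Nampt f/f and by -3.52 from Nfkbiz f/f. Against Nfkbiz f/f, Nfkbiz differed by 1.59 and Il6 by 3.30, both less negative in Ldha f/f, and Mmp13 by -0.73, more negative in Ldha f/f.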

How the results depend on the processing

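Of 190 named genes run under the alternatives, 186 were called. All 186 kept their direction within each library set alone, and 156 kept their direction and their side of the threshold in every alternative with a test. Most were named because they were called in these same libraries. Their kept directions were therefore close to fixed in advance and are no independent support. Under the main comparison 5392 genes were called with no replicate block, against 7120, and 4944 to 6460 when 1 library was left out. Without IL-1β, 877 were called with no block, against 1994, and 62.1% of these were higher, against 51.6%. The difference with IL-1β gave 1825 calls with no block and 2156 to 3473 when 1 library was left out, against 3374, and with edgeR's filterByExpr 40.7% of the calls were higher, against 50.5%. The difference from Nampt f/f gave 23 calls with no block, 147 with DESeq2, 650 with limma, 306 with no filter on low counts, 15 to 21 when 1 Ldha f/f library was left out and 246 without Nfkbiz f/f Cre + IL-1β replicate 2, an alternative chosen after the data were seen, against 73. The share higher among them was 31.4% with filterByExpr and 20.9% with no filter, against 46.6%. The difference from Nfkbiz f/f gave 3163 to 3750 calls when 1 Ldha f/f library was left out, against 4382. The sign of the log2 fold change of Cybb, not called, turned from -0.01 to 0.09 with no block and ranged from -0.41 to 0.38 when 1 library was left out. The median of the matrix metalloproteinases was -0.13 and ranged from -0.26 to 0.06 when 1 library was left out. The cause of these shifts was not tested. With 2 libraries a group, genes of a few CPM were estimated with wide errors, and a gene that did not pass the test is not shown to be unchanged.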
